A study of Mus musculus with 9 samples.

Results

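The genes described here encode the proteins of the cytoplasmic ribosome, together with the paralogs that share their names. Members were taken from the annotation of the array as genes whose symbol is Rpl or Rps and a number, with a letter or an l suffix allowed, plus Rplp0, Rplp1, Rplp2 and Rpsa, leaving out the Rps6k kinases and pseudogenes. Each gene was read from its brightest probe set with 1 gene symbol, and 49 of the 18193 genes measured in this way were members. Of these, 43 are main ribosomal protein genes and 6 are paralogs: Rpl39l, Rps4l, Rpl7l1, Rps27l, Rpl22l1 and Rpl3l. A further 29 symbols that fit the rule, among them Rpl3, Rpl5, Rpl10, Rpl36a, Rpl36al and Rplp1, occurred only in probe sets shared by several genes and were not used, and Rpl10l was not analysed here.

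Mouse embryonic stem (ES) cells that carry a doxycycline-controlled, constitutively active form of PKA (the cAMP-dependent protein kinase) were profiled on Affymetrix arrays, 1 array per group and 9 in all. In 4 arrays cells had differentiated without doxycycline (Dox-) for 0.5, 1.5, 2.5 or 3.5 days, in 4 arrays they had differentiated for the same times with 1 µg/ml doxycycline (Dox+), and 1 array held undifferentiated ES cells. The undifferentiated cells were kept with leukemia inhibitory factor (LIF) and doxycycline, and differentiation took place in MEM alpha with serum and without LIF. The labels do not state in which of the media the kinase was on, nor whether the line is 1 clone or grew on feeder cells.

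Values are signals on a linear scale, set by the authors to a trimmed mean of 100 on every array. Differences are given on the log2(signal + 16) scale with their standard error (SE), which understates the change of dim genes. No group had a replicate, so the 4 days served as repeats of the comparison of media and both media as repeats for the days. The p-values therefore reflect only how far these arrays spread, which may be technical. A gene was tested if its signal reached 50 on at least 2 arrays, which 8716 genes and 47 members did, and was called at an adjusted p under 0.05. Summed over 7 markers of pluripotent cells, the signal was 14959, 7991, 4310 and 1502 on D0.5, D1.5, D2.5 and D3.5 in Dox-, 15911, 11768, 8557 and 6514 in Dox+, and 15475 in undifferentiated cells. The sum over 5 mesoderm markers ran from 60 to 3693 in Dox- and from 37 to 713 in Dox+, and that over 7 fibroblast markers, of which 2 passed the filter, from 43 to 448 in Dox- and from 47 to 206 in Dox+. In these bulk samples fewer cells of a type and less RNA per cell cannot be told apart.

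A ribosome is built from a large and a small subunit, each an rRNA scaffold covered by proteins that are needed in near equal numbers. Several of these proteins have a second gene, often a copy that arose by retroposition or duplication. Rpl39l, the paralog of the X-linked Rpl39, is best known from male germ cells, where its protein lines the exit tunnel of the large subunit, and Rps4l is an autosomal copy of the X-linked Rps4x. Rpl22l1 and Rps27l are broadly expressed relatives of Rpl22 and Rps27, of which Rps27l is a target of p53, Rpl7l1 is a relative of the large-subunit protein Rpl7, and Rpl3l is the form of Rpl3 in striated muscle. The mRNAs of the main genes begin with a tract of pyrimidines (the TOP sequence) through which mTOR signalling controls their translation, and their promoters are commonly rich in CpG dinucleotides and in binding sequences of ETS-family factors.

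Promoter sequences show how far the paralogs share these features with the main genes. RefSeq windows (GRCm38.p6) from 250 bases before to 50 bases after the annotated start were at hand for 43 members, 38 of them main genes. The windows of 3 paralogs and of Rpl39 follow, from 250 bases before to 30 bases after the start, with CCGGAAG (the core of many ETS-factor sites) and CTTTCC (a short run of pyrimidines) in capitals where they occur on either strand. They lie at chr16:10169978-10170257 on the plus strand (Rpl39l), chr17:46782627-46782906 on the minus strand (Rpl7l1), chr3:28805258-28805537 on the plus strand (Rpl22l1) and chrX:37085193-37085472 on the minus strand (Rpl39), each spanning the upstream region and the first bases of the transcript.
Rpl39l: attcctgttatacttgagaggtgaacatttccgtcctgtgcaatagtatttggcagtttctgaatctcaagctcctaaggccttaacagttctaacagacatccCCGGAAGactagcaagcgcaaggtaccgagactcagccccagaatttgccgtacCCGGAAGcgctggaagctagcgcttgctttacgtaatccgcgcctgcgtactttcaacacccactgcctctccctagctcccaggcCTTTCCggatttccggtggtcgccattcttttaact
Rpl7l1: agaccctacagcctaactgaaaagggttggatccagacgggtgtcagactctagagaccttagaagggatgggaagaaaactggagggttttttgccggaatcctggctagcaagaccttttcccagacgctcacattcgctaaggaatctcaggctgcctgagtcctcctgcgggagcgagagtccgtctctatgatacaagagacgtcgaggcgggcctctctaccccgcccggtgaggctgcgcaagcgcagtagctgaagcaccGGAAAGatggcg
Rpl22l1: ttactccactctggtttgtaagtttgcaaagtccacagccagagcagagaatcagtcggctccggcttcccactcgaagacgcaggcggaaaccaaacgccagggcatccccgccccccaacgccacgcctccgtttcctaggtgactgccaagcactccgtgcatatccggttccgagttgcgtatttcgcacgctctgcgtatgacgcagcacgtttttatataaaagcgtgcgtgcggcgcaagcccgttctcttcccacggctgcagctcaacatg
Rpl39: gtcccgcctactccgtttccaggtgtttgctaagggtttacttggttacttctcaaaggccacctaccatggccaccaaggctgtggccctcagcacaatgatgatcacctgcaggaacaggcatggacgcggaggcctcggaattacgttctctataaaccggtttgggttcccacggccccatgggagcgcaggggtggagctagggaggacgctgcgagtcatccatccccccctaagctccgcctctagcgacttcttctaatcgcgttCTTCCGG

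Of the 38 main genes with a window of 300 bases, 19 (50%) held CCGGAAG on either strand, against 9.93% of the windows of 27025 genes. CTTTCC also stood in 19 of 38 (50%), against 29.3% of all genes. The ETS-like CACTTCCG, which can overlap CCGGAAG on the other strand, was found in 4 of 38 (10.5%, against 3.86%), ATGCGCA in 4 (10.5%, against 3.23%), and TATAAA in 5 (13.2%, against 15.7%). The main genes' windows held a median of 23 CpG (8 to 39), against 8 over all genes. Among the paralogs, Rpl39l had 17 CpG and both CCGGAAG and CTTTCC, Rpl7l1 had 16 CpG and CTTTCC alone, on the opposite strand (GGAAAG as printed), and Rpl22l1 had 30 CpG and neither, while Rpl39 had 17 CpG and CCGGAAG alone. Of the 5 paralogs with a window, 2 held CCGGAAG and 3 held CTTTCC. These are matches of letters on either strand, which show no binding and do not count TOP tracts.

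Among the paralogs, Rpl39l, Rps4l and Rpl7l1 fell between D0.5 and D3.5 and Rps27l and Rpl22l1 did not pass the test. Rpl39l, the paralog best known from male germ cells, had a signal of 978.3, 242.0, 57.3 and 15.4 on D0.5, D1.5, D2.5 and D3.5 in Dox-, 1068.3, 868.6, 303.4 and 34.8 in Dox+, and 1101.8 in undifferentiated cells. It lay near its undifferentiated level on D0.5 in both media and lower on every later day, and earlier in Dox- than in Dox+. Relative to undifferentiated cells, 22% was left on D1.5 in Dox-, against 78.8% in Dox+, and 5.2% on D2.5 in Dox-, against 27.5% in Dox+. On D3.5 both signals lay under 50, the level of the filter, and no fold is given for them.

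Rps4l, the autosomal copy of Rps4x, had 3204.6, 2333.4, 1609.0 and 1320.5 on D0.5, D1.5, D2.5 and D3.5 in Dox-, 3847.2, 2652.4, 2176.1 and 1755.2 in Dox+, and 3076.0 in undifferentiated cells. It stepped down on each day in both media and was below Dox+ in Dox- on all 4 days. On D3.5 it stood at 42.9% of the undifferentiated level in Dox- and at 57.1% in Dox+. Rpl7l1, the relative of Rpl7, had 1061.9, 807.5, 859.4 and 633.5 in Dox- and 1153.6, 704.2, 688.6 and 688.8 in Dox+ on the same days, against 1168.5 in undifferentiated cells. In Dox+ its step came between D0.5 and D1.5 (-0.7). In Dox- it differed by -0.39 over that day, by 0.09 over the next and by -0.43 from D2.5 to D3.5. Its other 2 probe sets were also lower on D3.5 than on D0.5, by 0.46 to 1.11 in size on the log2 scale.

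The other paralogs kept most of their signal. Rps27l, the p53 target, ranged from 3087.5 (D3.5) to 4287.2 (D1.5) in Dox- and from 3885.5 (D1.5) to 4748.3 (D0.5) in Dox+, against 3948.6 in undifferentiated cells. Rpl22l1 had 4018.5, 4343.6, 4204.2 and 4560.4 in Dox-, 4562.4, 5016.2, 4311.7 and 5045.9 in Dox+, and 3349.8 in undifferentiated cells, and its deposited signal was thus above the undifferentiated array on all 8 others. Rpl3l, the muscle form, stayed between 0.7 and 10.2 on all 9 arrays and was not tested.

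**Figure D1:**
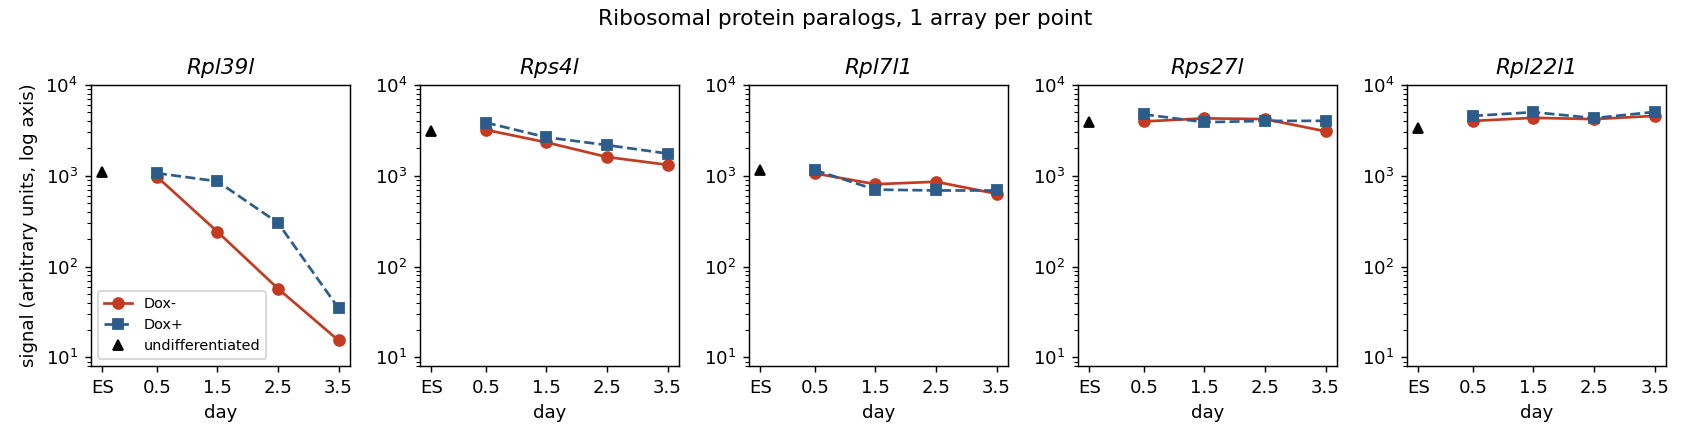
Signal of 5 ribosomal protein paralogs (log axis, arbitrary units) by day of differentiation, 1 array per point, in Dox- (red circles), Dox+ (blue squares) and undifferentiated ES cells (black triangles). By D3.5 Rpl39l stood at 15.4 in Dox- and 34.8 in Dox+, Rps4l and Rpl7l1 declined less, and Rps27l and Rpl22l1 stayed above 3000.

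The fit across all genes tested each of these changes with both media together. In D3.5 minus D0.5, Rpl39l changed by -4.70 ± 0.47 (SE, limma, adjusted p = 0.00413; -5.40 with 1 and -3.62 with 64 added to the signal), Rps4l by -1.20 ± 0.09 (adjusted p = 0.00308) and Rpl7l1 by -0.73 ± 0.15 (adjusted p = 0.0206). Rps27l differed by -0.30 ± 0.14 (limma, adjusted p = 0.165) and Rpl22l1 by 0.16 ± 0.07 (adjusted p = 0.13). Thus 3 of 5 tested paralogs were called lower and 0 higher, while 10.2% of all tested genes were called lower and 11.8% higher. The fitted differences of the 7 pluripotency markers were also below 0, 5 of 7 being called lower. Not all of them fell in both media. In Dox+, Nanog had 913.9 on D0.5 and 1886.6 on D3.5, and Pou5f1 had 2724.4 and 2098.7. The part of these markers in the result was not tested.

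Among the main genes no such fall was called. None of the 42 tested was called in D3.5 minus D0.5 by limma, against 22% of all tested genes. An unadjusted p under 0.05 was found for 1 of 42, against 3268 of 8716 tested genes. The median difference of the 42 was -0.02, against 0.02 over all tested genes. With probe sets of plain design only, which replaces the brightest probe set of several genes, Rps24, a small-subunit protein, was called lower (-0.61 ± 0.12, limma adjusted p = 0.0184), against -0.08 ± 0.07 (adjusted p = 0.436) in its brightest probe set. Centring arrays on their median lowers D3.5 minus D0.5 by 0.15 in Dox-, since the median over tested genes was 7.77 on D3.5 and 7.62 on D0.5.

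A paralog and its main gene were then tested against each other, as the change in their log2 difference, in 5 pairs adjusted together with all genes (8721 rows). The pair difference measures unequal change and not a ratio of levels, since different probe sets are not on 1 scale. Rpl39l minus Rpl39 changed by -4.74 ± 0.37 (limma, adjusted p = 0.00288), Rps4l minus Rps4x by -1.19 ± 0.07 (adjusted p = 0.00279) and Rpl7l1 minus Rpl7 by -0.67 ± 0.11 (adjusted p = 0.0111) in D3.5 minus D0.5. Rps27l minus Rps27 differed by -1.18 ± 0.39 (limma, adjusted p = 0.0793) and Rpl22l1 minus Rpl22 by 0.25 ± 0.07 (adjusted p = 0.056), so that 3 of 5 pairs were called. Rpl39 reached a signal of 50 on 2 Dox- arrays alone, and the value of its pair is close to that of Rpl39l by itself (-4.70). With a filter at a signal of 100 this pair was not tested and 2 pairs were called.

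The main genes in these pairs differed in how bright their probe sets were. Rps4x had 6214.0, 6725.0, 6302.0 and 5982.4 on D0.5 to D3.5 in Dox-, 7053.8, 6552.8, 7204.0 and 7206.3 in Dox+, and 5312.4 in undifferentiated cells, and its own D3.5 minus D0.5 was -0.01 ± 0.08 (limma, adjusted p = 0.929). Rpl7 differed by -0.06 ± 0.06 (adjusted p = 0.509) and Rpl22, an RNA-binding protein of the large subunit, by -0.08 ± 0.06 (adjusted p = 0.335), both in their brightest probe sets. Others of their probe sets went further down in Dox-, with no test: the second of Rpl22 differed by -0.56 in Dox- and 0.03 in Dox+, and the third of Rpl7 by -0.37 in Dox- and 0.17 in Dox+. The probe set of Rpl39, which encodes a small protein of the exit tunnel, had only 61.8, 28.0, 40.7 and 67.2 in Dox-, 23.2, 28.9, 20.0 and 22.8 in Dox+, and 29.3 in undifferentiated cells. Its signal was low on every array, and its own D3.5 minus D0.5 was 0.04 ± 0.34 (limma, adjusted p = 0.944).

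**Figure D2:**
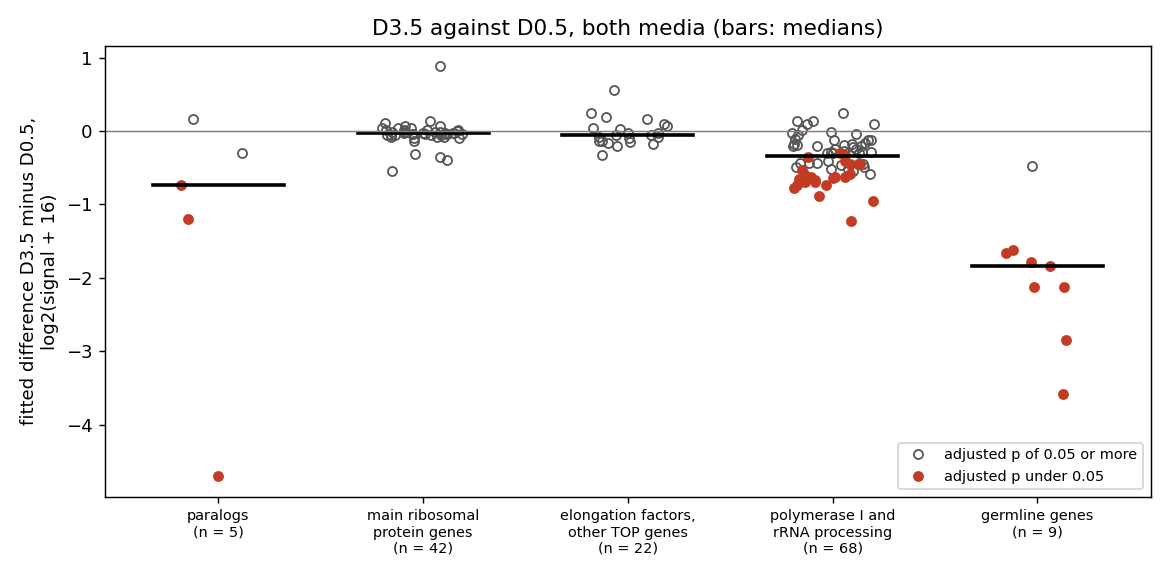
Fitted difference D3.5 minus D0.5 on the log2(signal + 16) scale, 1 point per tested gene, for paralogs, main ribosomal protein genes, elongation factors and other TOP genes, RNA polymerase I and rRNA-processing genes, and germline genes. Filled red points had an adjusted p under 0.05, and bars are medians. The main genes centre on a median of -0.02 with no filled point, while 3 of 5 paralogs and 24 of 68 polymerase I and rRNA-processing genes are filled, all below 0.

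The 43 main genes fell into bright and dim probe sets with none between. In 34 of them, 17 of the large and 17 of the small subunit, the mean signal over 9 arrays was between 4260 and 7700, close to the highest signal on any array (6799.8 to 9032.4). The other 9 (Rpl37, Rpl14, Rps25, Rpl12, Rps6, Rpl27a, Rps27, Rpl39 and Rps16) had a mean of at most 657. Bright and dim probe sets are described separately, and no level is compared between genes. Of the 49 members' probe sets, 33 had a suffix that marks probes shared between transcripts or genes (17 _a, 2 _s and 14 _x), and RNA of near-identical copies could add to their signal.

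The deposited signals of the bright main genes varied little. Across the 8 differentiating arrays the highest signal of each was 1.06 to 1.27 times its lowest (median 1.18), against a median of 1.27 over the 158 other tested genes with a mean signal of at least 3000 (1.07 to 22.6). These signals lie near the top of what the arrays recorded, and whether probe sets this bright understate changes was not tested. In D3.5 minus D0.5 they ran from -0.08 to 0.11 in the large subunit and from -0.14 to 0.14 in the small subunit, each with a median of -0.02. As deposited, the 34 had a median of -0.02 in Dox- (20 below 0) and -0.04 in Dox+ (27 below 0). With arrays centred on their median, they had -0.18 in Dox- (30 below 0) and -0.09 in Dox+ (33 below 0). How far they share a direction thus depends on the scaling. The stalk proteins Rplp0 and Rplp2, which recruit elongation factors, differed by 0.02 ± 0.07 (limma, adjusted p = 0.839) and -0.02 ± 0.06 (adjusted p = 0.797). Rpl11, which binds Mdm2 when ribosome assembly fails, differed by -0.02 ± 0.05 (adjusted p = 0.774), and Rpsa, a small-subunit protein also described as a laminin receptor, by -0.04 ± 0.06 (adjusted p = 0.64). Furthest up among the bright genes were Rps2 (0.14 ± 0.08, limma adjusted p = 0.258), a protein of the mRNA entry region, and Rpl41 (0.11 ± 0.08, adjusted p = 0.37), the smallest protein of the ribosome, followed by Rps14 and Rps26 of the small subunit (0.07 each).

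Set against undifferentiated cells, the bright main genes had higher deposited signals in differentiating cells, an offset that quantile normalization nearly removed. Rplp2 had 7444.7, 7391.6, 7180.1 and 7421.1 on D0.5 to D3.5 in Dox-, 8207.5, 7622.1, 7079.9 and 7977.8 in Dox+, and 5798.4 in undifferentiated cells. Rpsa had 6791.9, 6620.8, 6508.6 and 7016.8 in Dox-, 7777.1, 6971.1, 6581.1 and 7083.6 in Dox+, and 5292.5 in undifferentiated cells. The undifferentiated array was the lowest of 9 for 32 of the 34 bright genes, and D0.5 Dox+ the highest for 26. On D0.5 all 34 were above undifferentiated cells in both media, with a median of 0.23 in Dox- and 0.37 in Dox+. The 158 other tested genes with a mean signal of at least 3000 also lay above, with medians of 0.16 in Dox- and 0.25 in Dox+. After quantile normalization the medians of the 34 genes were 0.03 in both media, with 19 of 34 above in Dox- and 21 in Dox+. This step gives every array the same distribution, so for the brightest genes it removes most of a shared offset, whatever its source. With arrays centred on their median, the D0.5 medians of the 34 genes were 0.25 in Dox- and 0.37 in Dox+, with all 34 above in both. The offset on D0.5 thus stayed under centring. On D3.5 the centred medians were 0.1 in Dox- (25 above) and 0.29 in Dox+ (34 above), against 0.23 and 0.35 as deposited. With 1 undifferentiated array the offset has no test, and its source was not tested.

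**Figure D3:**
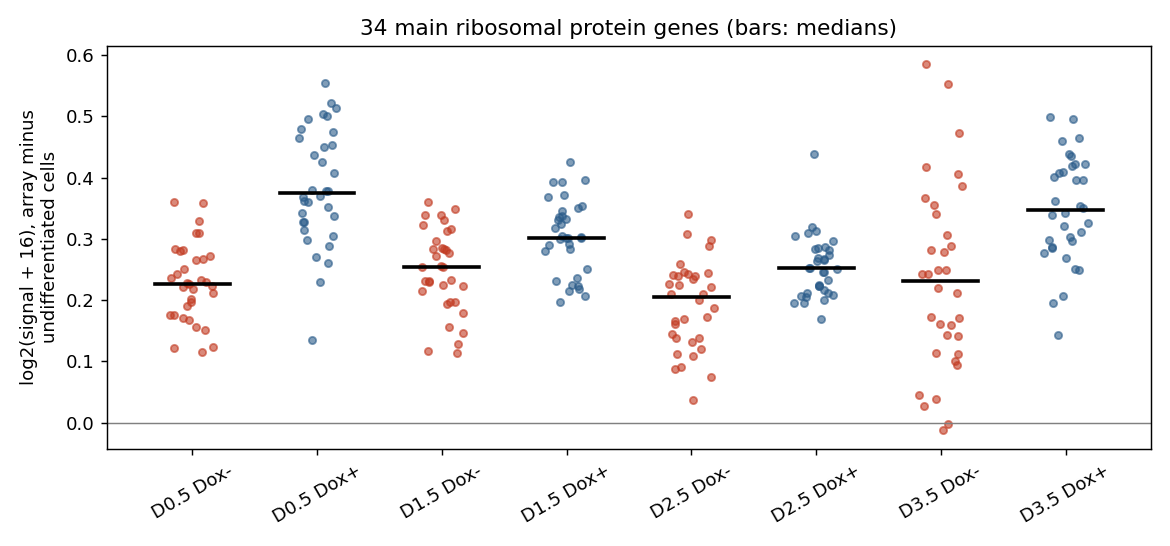
Difference on the log2(signal + 16) scale between each differentiating array and undifferentiated cells for the 34 bright main ribosomal protein genes (1 point per gene, bars are medians), Dox- in red and Dox+ in blue. On D0.5 the medians are 0.23 in Dox- and 0.37 in Dox+ (0.03 in both after quantile normalization), and on D3.5 they are 0.23 in Dox- and 0.35 in Dox+.

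Dim main genes varied more. Rps25, a small-subunit protein used by some viral IRES elements, had 577.4, 504.1, 412.5 and 321.3 on D0.5, D1.5, D2.5 and D3.5 in Dox-, 565.2, 487.7, 494.3 and 458.4 in Dox+, and 661.0 in undifferentiated cells. It declined on each day in Dox- and was lower on D3.5 than on D0.5 in both media, and its D3.5 minus D0.5 was -0.55 ± 0.17 (limma, adjusted p = 0.0627), the lowest p among the main genes. Rpl37, a protein of the large subunit, had 760.0, 697.2, 590.6 and 450.8 in Dox- and 606.4, 694.2, 768.2 and 579.4 in Dox+, and differed by -0.40 ± 0.19 (adjusted p = 0.184). Rps6, the small-subunit protein phosphorylated by S6 kinase, had 253.5, 234.6, 214.5 and 159.7 in Dox- and 234.8, 209.3, 228.0 and 217.6 in Dox+, and differed by -0.36 ± 0.18 (adjusted p = 0.188). Rpl27a, a large-subunit protein, ran from 97.0 to 122.6 in Dox- and from 90.3 to 114.1 in Dox+. Rps16 lay between 0.1 and 4.4 on all arrays and was not tested.

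The comparison of media asked whether doxycycline, which controls the active kinase, changed these genes during differentiation. Over all 4 days, limma called 0 of 47 members and 0 of 8716 genes (0%), with a lowest adjusted p of 0.416, while 20 members and 1026 genes had an unadjusted p under 0.05. Rpl39l differed by -1.18 ± 0.33 and Rps4l by -0.32 ± 0.07 in Dox- minus Dox+ (limma, adjusted p = 0.416 each). Both were lower in Dox- on all 4 days. Rpl22l1 differed by -0.14 ± 0.05, Rps27l by -0.11 ± 0.10 and Rpl7l1 by 0.07 ± 0.10. Furthest from 0 among the main genes were Rpl39 (0.68 ± 0.24) and Rps27 (0.56 ± 0.27) above, and Rpl14 (-0.20 ± 0.12), Rpl12 (-0.19 ± 0.12) and Rps25 (-0.17 ± 0.12) below. Rpl39 and Rps27 each reached a signal of 50 on 2 Dox- arrays and 0 Dox+ arrays. They thus entered the test through arrays in which they were high, which favours their place above.

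On single days Rpl39l had the largest difference among the tested paralogs from D1.5 on. For D0.5 to D3.5 its Dox- minus Dox+ was -0.13, -1.78, -2.12 and -0.69. By this measure it was number 22 from the bottom of 8716 genes on D1.5 and number 34 on D2.5. On D3.5 both of its signals were under 50. Genes at least 1.5-fold lower in Dox- made up 0.47%, 5.17%, 10.4% and 10.6% of all tested genes on D0.5 to D3.5. By brightest probe sets Rpl39l was the only tested paralog past that fold on any day. The third probe set of Rpl7l1 was past it in the other direction on D2.5, with 0.02, 0.5, 0.61 and -0.25 on D0.5 to D3.5. Rps4l differed by -0.26, -0.18, -0.43 and -0.41 on the same days. These single-day values rest on 1 array each and have no replicate check.

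**Figure D4:**
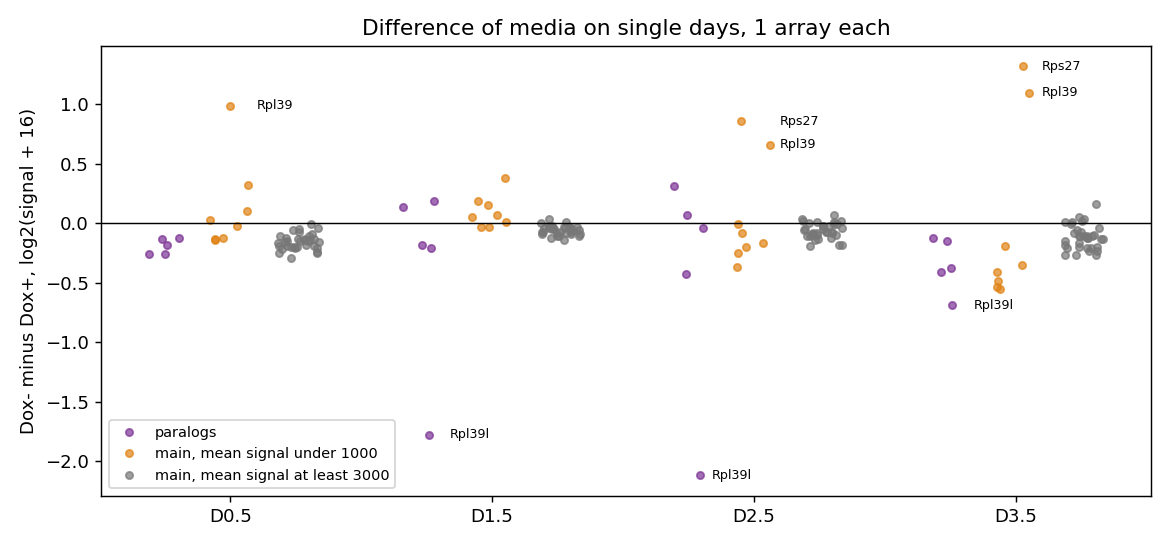
Dox- minus Dox+ on the log2(signal + 16) scale for each day, 1 point per tested gene and 1 array per medium, for paralogs (purple), dim main genes (orange, mean signal under 1000) and bright main genes (grey, mean signal at least 3000). Rpl39l reached -1.78 on D1.5 and -2.12 on D2.5, Rps27 1.32 and Rpl39 1.10 on D3.5, and the bright genes stayed within -0.29 and 0.16. Rps27 and Rpl39 each reached a signal of 50 on 2 Dox- arrays alone.

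The main genes differed little between the media. Their median Dox- minus Dox+ was -0.14, -0.04, -0.07 and -0.13 on D0.5, D1.5, D2.5 and D3.5. In its brightest probe set no main gene was 1.5-fold lower in Dox- on any day. Of 41 other probe sets of main genes that reached the signal filter, 5 were at least that much lower in Dox- on 1 day each, and 3 (of Rpl37a, Rpl41 and Rps9) at least that much higher on 1 or 2 days. On D3.5 the second Rpl22 set had 2056.1 in Dox- and 3101.3 in Dox+ (-0.59), the third Rpl7 set 3213.9 in Dox- and 5384.5 in Dox+ (-0.74), and sets of Rpl37a (-0.77) and Rps10 (-0.80) were also lower, as was the third Rpl22 set on D1.5 (-0.64). Over 4 days all 34 bright genes lay below 0, from -0.16 to -0.01 (median -0.11), against -0.01 for the median of all tested genes. After quantile normalization 21 of the 34 lay below 0 and 13 above, with a median of -0.02, so their shared direction depends on the scaling, although centring the arrays kept all 34 below 0. Quantile normalization gives every array the same distribution. Since the 34 lie at or above percentile 99 of mean signal, it removes most of any shift they share, whatever its source. The other bright genes had medians of -0.09, -0.01, -0.04 and -0.13 on the 4 days.

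On single days the bright genes furthest from 0 between the media were Rpl8, a large-subunit protein near the peptidyl transferase centre (on D0.5, 4571.4 in Dox- against 5578.1 in Dox+, -0.29), and Rpl41 (on D3.5, 7109.0 in Dox- against 6349.9 in Dox+, 0.16). At the latest time several dim genes were lower in Dox-. Rpl14, a large-subunit protein, had 372.6 in Dox- and 551.7 in Dox+ (-0.55) on that day. Rpl12, which forms the base of the stalk, had 354.2 in Dox- and 520.9 in Dox+ (-0.54), and Rps25 had 321.3 in Dox- and 458.4 in Dox+ (-0.49). On D0.5 these genes differed little, with Rpl14 at 539.8 in Dox- and 594.9 in Dox+, and Rpl12 at 440.1 in Dox- and 447.9 in Dox+.

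For the media on D2.5 and D3.5 together, a comparison chosen in earlier work on these values, limma called 1 of 47 members, against 7.18% of all tested genes (2.83% higher and 4.35% lower). An unadjusted p under 0.05 was found for 12 of 47 members and for 2139 of 8716 tested genes, a similar share. The member called was Rps27, a zinc-finger protein of the small subunit, with 1.09 ± 0.21 (adjusted p = 0.0273). Its signal was 31.3, 32.4, 69.9 and 128.3 on D0.5, D1.5, D2.5 and D3.5 in Dox-, 35.8, 26.5, 31.2 and 41.7 in Dox+, and 48.6 in undifferentiated cells. It reached 50 on 2 arrays only, D2.5 and D3.5 in Dox-, so it entered the test through the arrays in which it was high. The call was lost without D0.5 (1.09, limma adjusted p = 0.0812) and without D3.5 (0.86, adjusted p = 0.185), and with a filter at a signal of 100, at which Rps27 was not tested. Rps27l, its paralog, differed by 0.07 on D2.5 and by -0.38 on D3.5. Across the days Rps27 differed by 0.88 ± 0.38 in D3.5 minus D0.5 (limma, adjusted p = 0.146), the furthest up of all members.

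Rpl39 also reached 50 on 2 Dox- arrays alone. For D0.5 to D3.5 its Dox- minus Dox+ was 0.99, -0.03, 0.66 and 1.10, and the fit of the last pair of days gave 0.88 ± 0.34 (limma, adjusted p = 0.17). By brightest probe sets, Rpl39 and Rps27 were the main genes at least 1.5-fold higher in Dox- on any day, Rpl39 at the earliest time and both from D2.5 on. Such genes made up 0.654%, 4.72%, 7.53% and 9.61% of all tested genes from D0.5 to D3.5.

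Rpl39l differed by -1.41 ± 0.56 (limma, adjusted p = 0.177) and Rps4l by -0.42 ± 0.11 (adjusted p = 0.0768) on D2.5 and D3.5, neither called. Rpl39l was called without D1.5 (-1.41, adjusted p = 0.0465) and Rps4l with arrays centred (-0.46, adjusted p = 0.048). Rpl14 and Rps25 each differed by -0.37, Rpl37 by -0.36 and Rpl12 by -0.35, with adjusted p between 0.112 and 0.153. Upward of 0 lay Rpl7l1 (0.10 ± 0.14), Rpl41 (0.08 ± 0.08) and Rps2 (0.06 ± 0.08). The sums of the mesoderm markers (4 of 5 called higher) and pluripotency markers (3 of 7 called lower) moved with these differences. Over all tested genes 2.83% were called higher and 4.35% lower. Kdr and Isl1 reached the signal filter on Dox- arrays alone. Mixl1, Mesp1 and Pdgfra reached it on D2.5 and D3.5 in Dox- and on D3.5 in Dox+. The mesoderm markers thus entered the test mainly through Dox- arrays in which they were high, which favours a call higher in Dox-. The part of both marker lists in these differences was not tested.

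Whether the difference of media changed steadily from day to day was asked with a medium by day product. Limma called 0 of 47 members and 0 of 8716 genes (0%), with 2 members and 736 genes at an unadjusted p under 0.05. The 2 members were Rps27 (0.50 ± 0.17 per day, adjusted p = 0.562) and Rps25 (-0.19 ± 0.07 per day, adjusted p = 0.576). Rps27 reached a signal of 50 on D2.5 and D3.5 in Dox- alone, so it entered the test through arrays in which it was high. Rpl37 differed by -0.24 ± 0.10 per day (adjusted p = 0.595), Rpl39l by -0.21 ± 0.30 (adjusted p = 0.864) and Rpl8 by 0.10 ± 0.05 (adjusted p = 0.631). Rps6 (-0.18), Rpl12 (-0.17), Rpl39 (0.10), Rpl41 (0.10) and Rps2 (0.09) were the others furthest from 0.

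Between the media no pair of paralog and main gene was called. Over 4 days, Rpl39l minus Rpl39 differed by -1.86 ± 0.26, Rpl7l1 minus Rpl7 by 0.23 ± 0.08 and Rps4l minus Rps4x by -0.17 ± 0.05 (limma, adjusted p = 0.414 each). Rpl39 and Rps27 entered these pairs only through 2 Dox- arrays in which they were high. Rps27l minus Rps27 differed by -0.67 ± 0.28 (adjusted p = 0.419). For Rpl22l1 minus Rpl22 the difference was 0.00 ± 0.05 (adjusted p = 0.986).

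Many genes that build ribosomes without being part of them fell across the days. Of 70 listed genes of RNA polymerase I and rRNA processing, 68 were tested, and 24 were lower and 0 higher in D3.5 minus D0.5 (limma, adjusted p under 0.05; 10.2% and 11.8% of all genes), with a median of -0.34. Rrn3, which brings polymerase I to the rDNA promoter, fell by 1.23 ± 0.17 (adjusted p = 0.00842), and Riok2, a kinase of small-subunit maturation, fell by 0.95 ± 0.19 (adjusted p = 0.0213). Rrp1 (0.25 ± 0.13, adjusted p = 0.217) and Imp3 (0.14 ± 0.11, adjusted p = 0.38), both of rRNA processing, were furthest up. The count of lower genes was 11 without D1.5, 15 without the signal filter, 16 without D2.5 or without the eBayes trend, and 31 with arrays centred. Between the media 0 of 68 were called in any comparison, with medians of -0.03 over 4 days and -0.06 on D2.5 and D3.5. Over all tested genes 7.18% were called on D2.5 and D3.5.

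No elongation factor or other gene with a TOP mRNA was called across the days. Of 26 listed, 22 were tested and 0 were called in D3.5 minus D0.5 by limma, against 22% of all tested genes. An unadjusted p under 0.05 was found for 4 of 22, against 3268 of 8716 tested genes. The median was -0.06. Differences ran from Eif3k (-0.33 ± 0.10, limma adjusted p = 0.0576), a subunit of initiation factor eIF3, to Vim (0.56 ± 0.35, adjusted p = 0.28), which encodes the intermediate filament vimentin. On D2.5 and D3.5, 7.18% of all tested genes were called. In this list Vim was higher in Dox- (1.18 ± 0.15, adjusted p = 0.00772), and the other 21 were not called. Among them Eef1d, an exchange-factor subunit, differed by 0.17 ± 0.12 and Eef1b2, another such subunit, by -0.22 ± 0.07 (limma, adjusted p = 0.42 and 0.103).

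Genes that control the translation of ribosomal protein mRNAs showed few calls. Of 20 listed, 15 were tested. In D3.5 minus D0.5, 1 was called higher and 0 lower, against 11.8% and 10.2% of all tested genes. Pdcd4, an inhibitor of the initiation factor eIF4A, rose in D3.5 minus D0.5 (0.53 ± 0.15, limma adjusted p = 0.0481), while Tsc1, a brake on mTOR, differed by 0.60 ± 0.23 (adjusted p = 0.114), Eif4ebp1, the mTOR-controlled repressor of eIF4E, by -0.37 ± 0.13 (adjusted p = 0.1) and Max, the partner of Myc, by -0.68 ± 0.33 (adjusted p = 0.185). On D2.5 and D3.5, Myc, a transcription factor that drives ribosome synthesis, was higher in Dox- (1.46 ± 0.16, adjusted p = 0.00541). The other 14 were not called there, against 2.83% of all tested genes called higher and 4.35% lower.

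Of 12 genes of the ribosomal stress and p53 response, 10 were tested. In D3.5 minus D0.5, 1 was called higher and 1 lower, against 11.8% and 10.2% of all tested genes, so the list is near that share. In D3.5 minus D0.5, Perp, a membrane protein, rose (0.82 ± 0.18, limma adjusted p = 0.0258) and Ei24 fell by 1.57 ± 0.15 (adjusted p = 0.0038). Sesn2, a sestrin, differed by -0.82 ± 0.24 (adjusted p = 0.0533) and Bbc3, which encodes Puma, by 0.40 ± 0.32 (adjusted p = 0.401). Between the media 0 of 10 were called in any comparison. An unadjusted p under 0.05 was found for 1 of 10 over 4 days, against 1026 of 8716 tested genes. On D2.5 and D3.5 it was found for 1 of 10, against 2139 of 8716. Over all tested genes 7.18% were called on D2.5 and D3.5.

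Several germline genes fell over the same days as Rpl39l. Of 21 listed, 19 had a probe set and 9 reached the signal filter, which admits a gene through the arrays in which it is high. Of these, 8 were lower in D3.5 minus D0.5 (limma, adjusted p under 0.05), against 10.2% of all tested genes. Dazl, an RNA-binding protein of germ cells, fell by 3.58 ± 0.41 (limma, adjusted p = 0.00546) and Mael, which acts in piRNA silencing of transposons, fell by 2.84 ± 0.43 (adjusted p = 0.00954). Sycp3, a component of the synaptonemal complex, differed by -0.47 ± 0.67 (adjusted p = 0.642). On D2.5 and D3.5, Sycp3 (-2.27 ± 0.23, adjusted p = 0.00457) and Ddx4, an RNA helicase of germ cells (-1.09 ± 0.16, adjusted p = 0.0118), were lower in Dox-, and the other 7 were not called. Over all tested genes 4.35% were called lower there.

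Over the 9 arrays the tested genes whose log2 values ran most like those of Rpl39l were Dppa2 (Pearson r = 0.989) and Dppa4 (r = 0.987), which encode a pair of chromatin proteins of pluripotent cells, Fgf4 (r = 0.985), a growth factor, Cyct (r = 0.984), the testis form of cytochrome c, and Slc25a31 (r = 0.983), an ADP/ATP carrier of germ cells. Slc25a31 had 65.4 in undifferentiated cells and 57.0 on D1.5 in Dox+, and lay under 50, the level of the filter, on every other array. Dppa2 had 2523.6, 637.5, 88.3 and 13.9 on D0.5 to D3.5 in Dox-, 2331.9, 1120.1, 442.1 and 49.2 in Dox+, and 2557.6 in undifferentiated cells. Like Rpl39l it was near its undifferentiated level on D0.5 and lower in Dox- than in Dox+ on the 3 later days. Besides Slc25a31, only Mael, Dazl, Stk31 and Sycp3 of the 9 tested germline genes were placed by this measure. They were chosen after their values were seen, and the other tested germline genes were not placed. Mael was number 17 (r = 0.974), Dazl number 34 (r = 0.965) and Stk31 number 47 (r = 0.958). Sycp3 was number 2682 (r = 0.429). Rps4l was number 52 (r = 0.956), Zfp42, a pluripotency marker, number 415 (r = 0.878) and Pou5f1, the pluripotency factor Oct4, number 1311 (r = 0.723).

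Nearest to Rps4l were Rbmxl2 (r = 0.99), an RNA-binding protein of germ cells, Rhox13 (r = 0.989), a homeobox gene, Fancl (r = 0.989), a ubiquitin ligase of DNA repair, Rfc5 (r = 0.989), a clamp-loader subunit, and Srrt (r = 0.988), an RNA-processing factor. Rfc5 had 2040.2, 1369.1, 942.1 and 867.4 in Dox- and 2205.1, 1687.8, 1373.9 and 1002.2 in Dox+ on D0.5 to D3.5, against 1872.8 in undifferentiated cells. These correlations are descriptions over 9 arrays that share their days, and each gene was picked from 8716 as the most alike.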

How the data were processed

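The authors deposited 1 table of intensity values for 45101 probe sets on 9 Affymetrix Mouse430 2.0 arrays, on a linear scale. The values came from GCOS, per the submitters' processing notes, and each array has a mean of 100 after trimming 2% at each end, as the deposited values show. The settings of that software beyond the scaling are not stated by these sources. Probe sets were named by the platform annotation, with symbols updated by gene ID (RefSeq, GRCm38.p6): 34945 had 1 symbol, 932 several and 9224 none. The brightest probe set with 1 symbol stood for each of 18193 genes.

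Log2(signal + 16) was fitted with limma 3.58.1 in R 4.3.3 (lmFit, eBayes with a trend) over the 8 differentiating arrays, with day as a block for media (3 residual degrees of freedom) and medium as a block for days. P-values were adjusted by Benjamini-Hochberg over all 8716 tested genes. The fits were tested on simulated data with true changes of 0.5, 1 and 2 on the log2 scale. The fit of D3.5 minus D0.5 recovered 0%, 40% and 76% of them, and that of media on D2.5 and D3.5 0%, 36% and 74%. Media over 4 days recovered 6%, 60% and 86%, and the product, with these changes per day, 38%, 70% and 100%. A gene that was not called may thus have changed. Members, gene lists and tests were chosen with earlier results of these data known. Named genes are all paralogs and their main genes, Rplp0, Rplp2, Rpsa, Rpl11 and Rps6, the members furthest up and down and those called, the ends of each list, and the 5 genes most alike to Rpl39l and Rps4l. Rps24 and the germline and pluripotency genes placed among those alike to Rpl39l were chosen after their values were seen. Alternatives were other pseudocounts (1 and 64), filters (none and 100), scalings, probe sets, the eBayes trend, the blocks and each day left out.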

Additional observations from a re-analysis of the deposited data

How the results depend on the processing

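The labels give no replicate numbers to pair by, so arrays were paired only by day or by medium. The fits of media compare both arrays of each day, with day as a block, and the fits of days have medium as a block. With 9 arrays their number sets the precision.

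Of 79 alternative values of the counts of called members and pairs, 74 stayed within 1.5 times the main count and 5 did not. Many of the 74 compare 0 with 0 and say little. For media over 4 days and the medium by day product, 0 of all tested genes were called under any setting. All 5 concern media on D2.5 and D3.5, where 1 member was called: 0 with a filter at a signal of 100, 2 with arrays centred (Rps27 and Rps4l), and 0 to 2 with a day left out. The filter at 100 leaves Rps27 untested, and the cause of the others was not tested. Rpl39l, Rps4l and Rpl7l1 were called lower in D3.5 minus D0.5 under all 12 alternatives of that comparison. Quantile normalization added Rpl22l1 minus Rpl22 (0.26, limma adjusted p = 0.0427) to its pairs.

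Differences that changed sign were all uncalled. With quantile normalization Rpl22l1 on D2.5 and D3.5 became 0.01. With arrays centred the product of medium and day became -0.01 for Rpl22l1 and -0.02 for Rpl7l1. Rpl22l1 minus Rpl22 over 4 days became 0.07 with plain or averaged probe sets and ran from -0.03 to 0.03 with a day left out. Without the day block Rpl7l1 on D2.5 and D3.5 became -0.17. With a day left out, Rpl7l1 ran from -0.01 (without D2.5) to 0.13 over 4 days, from -0.12 (without D2.5) to 0.31 on D2.5 and D3.5, and from -0.16 (without D0.5) to 0.22 in the product, and was -0.02 there without D2.5. Rps27l ran from -0.38 to 0.07 (without D3.5) on D2.5 and D3.5, and from -0.26 to 0.16 (without D3.5) in the product, and Rpl39l from -1 to 0.54 (without D0.5) in the product. The main genes' median between the media became -0.01 on D0.5 and -0.02 on D2.5 and D3.5 with quantile normalization, and -0.20 on D3.5 with arrays centred.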
